A study of Mus musculus with 6 samples.

Results

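The tubulin isotype genes encode the alternative alpha and beta chains of the tubulin dimer, the unit from which microtubules are built. They were measured in 3 samples of dissected skin of mutant mice that carried the Hoxc13 knockout allele Hoxc13tm1Mrc and in 3 of wild type mice. All 6 samples were taken at 5 dpn and were labelled as male C57BL/6 skin, and the comparison asks which transcripts of skin differ where Hoxc13, a homeobox gene of the hair follicle, is disrupted. The skin samples are described as independent, while the zygosity of the mutants, the cells in which the allele acts and any pooling of animals are not stated in the labels. The set was a list of 10 gene symbols, with 6 beta genes (Tubb2a, Tubb2b, Tubb3, Tubb4b, Tubb5 and Tubb6) and 4 alpha genes (Tuba1a, Tuba1b, Tuba1c and Tuba4a), selected on their names with the wild type values and the mutant minus wild type differences of these arrays already known. Of these, 5 were read by a named probe set among the 16331 on the arrays: Tubb2a (Entrez gene 22151), Tubb3 (22152), Tubb5 (22154), Tubb6 (67951) and Tuba4a (22145). The other 2 beta genes and 3 alpha genes were not analysed here.

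Microtubules grow and shrink by adding and losing alpha-beta dimers, and they carry transport, build the mitotic spindle and give long cells their shape. Mammals hold several genes for each chain, whose products are nearly the same over the folded body and differ most in the acidic tail at the carboxyl end, where enzymes modify the protein. In the hair follicle, matrix cells divide at the base of the bulb, then elongate as they become shaft and sheath, so both mitotic and non-dividing cells of skin hold microtubules.

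Each array gave a log2 value for every probe set after RMA, the method by which the authors corrected background, equalised the arrays and summarised probes. A probe set has its own affinity, so the levels below can be compared between arrays for 1 gene but not between genes. On the second principal component (15.5% of the variance) mutant replicate 3 lay at -26.6, away from mutant replicates 1 and 2 at 13.1 and 11.1, and results are therefore given with and without it. On all 6 arrays Xist, a transcript of the inactive X chromosome, read at least 11.15 while 6 genes of the Y chromosome read at most 4.89, which goes against the label male for both groups. The Hoxc13 probe set read 8.95, 8.75 and 9.74 in mutant replicates 1 to 3, against 9.63, 9.81 and 9.83 in the wild type replicates, and the labels do not say whether its probes lie in the disrupted part. The 5 measured keratinocyte markers, Krt5 and Krt14 among them, together had a list mean of 12.64 in mutant and 12.50 in wild type skin.

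The upstream sequences of 4 of the measured genes are shown so that genes whose values moved by different amounts can be compared in the letters before the transcription start, and a window for Tubb6 was not used here. RefSeq gives them on GRCm38.p6 as the 250 bases before a start of each gene, read 5′ to 3′ on the strand of the gene. They span chr8:123411303-123411552 (plus strand) for Tubb3, chr13:34078009-34078258 (minus strand) for Tubb2a, chr17:35838302-35838551 (minus strand) for Tubb5 and chr1:75219295-75219544 (minus strand) for Tuba4a. Capitals mark matches on either strand to CCAAT (the box bound by NF-Y), TATAA (the TATA box core), GGGCGG (the GC box bound by Sp1), and TTTAT or TTTAC (cores of sites bound by posterior Hox proteins).
Tubb3: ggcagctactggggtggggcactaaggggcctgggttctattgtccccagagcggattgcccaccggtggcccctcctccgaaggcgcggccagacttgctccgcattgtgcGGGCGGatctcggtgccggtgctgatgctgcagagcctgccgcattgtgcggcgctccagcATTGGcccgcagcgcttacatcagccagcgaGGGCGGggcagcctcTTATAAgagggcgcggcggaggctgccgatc
Tubb2a: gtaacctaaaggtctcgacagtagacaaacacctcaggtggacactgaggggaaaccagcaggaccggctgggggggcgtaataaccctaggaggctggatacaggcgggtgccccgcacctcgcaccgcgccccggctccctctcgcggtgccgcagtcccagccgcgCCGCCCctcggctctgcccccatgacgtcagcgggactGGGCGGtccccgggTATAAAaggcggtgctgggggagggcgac
Tubb5: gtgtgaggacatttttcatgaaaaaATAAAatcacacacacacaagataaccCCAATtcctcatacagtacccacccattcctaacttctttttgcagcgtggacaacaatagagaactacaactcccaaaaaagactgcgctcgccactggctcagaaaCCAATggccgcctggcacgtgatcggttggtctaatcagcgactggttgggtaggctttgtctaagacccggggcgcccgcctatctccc
Tuba4a: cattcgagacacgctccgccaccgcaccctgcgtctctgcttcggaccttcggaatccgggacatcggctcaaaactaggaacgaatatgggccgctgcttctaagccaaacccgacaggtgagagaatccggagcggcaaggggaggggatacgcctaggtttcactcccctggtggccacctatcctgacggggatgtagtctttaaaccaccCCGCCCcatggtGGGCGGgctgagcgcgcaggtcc

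A TATAA match on the strand of the gene began 30 bases before the start in Tubb3 and 29 bases before it in Tubb2a, and none lay in the window of Tubb5, which had higher values in mutant skin, or of Tuba4a, which had lower values as Tubb3 and Tubb2a did. Of 32851 promoter windows of the same length in the table, 22.8% held TATAA on either strand. GGGCGG was found in Tubb3, Tubb2a and Tuba4a (32.7% of all windows), and CCAAT in Tubb3 and in Tubb5, which held 2 copies (33.8% of all windows). TTTAT was found in Tubb5 and in Tubb2a (37.3% of all windows), where it overlapped the TATAA match, and TTTAC in none of the 4 (28.3% of all windows). The base composition also differed, with 68.0% G and C in Tubb3, 68.4% in Tubb2a, 61.6% in Tuba4a and 49.2% in Tubb5, beside a median of 52.4% over all windows. These are matches of letters with no measure of binding, and their part in any difference was not tested.

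Tubb3, the class III beta chain best known as a neuronal marker, showed the greatest difference of the 5. It read 6.31, 6.62 and 6.66 in mutant replicates 1, 2 and 3, against 7.86, 7.73 and 7.93 in wild type replicates 1, 2 and 3. Every mutant array thus lay over 1 log2 unit below every wild type array, and mutant replicate 3 was the highest of the mutant arrays. The means were 6.53 ± 0.19 in mutant and 7.84 ± 0.10 in wild type skin (SD, n = 3 each), a difference of -1.31 (SE 0.11), or 2.47-fold lower. In whole skin, fewer cells of a type and less RNA per cell cannot be told apart, here and for each gene that follows.

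Tubb6, the class V beta chain, is known in mice from regenerating muscle fibres and is expressed in many tissues. It read 9.59, 9.91 and 9.44 in mutant replicates 1, 2 and 3, against 10.55, 10.42 and 10.38 in wild type replicates 1, 2 and 3. Mutant replicate 2 was the highest mutant array and still lay below the lowest wild type array. The means were 9.64 ± 0.24 in mutant and 10.45 ± 0.09 in wild type skin (SD, n = 3 each), a difference of -0.81 (SE 0.12), or 1.75-fold lower.

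Tubb2a, a class II beta chain abundant in nerve cells and present in other tissues, was also lower in every mutant array. It read 10.78, 11.11 and 10.77 in mutant replicates 1, 2 and 3, against 11.67, 11.37 and 11.50 in wild type replicates 1, 2 and 3. As with Tubb6, mutant replicate 2 and wild type replicate 1 were the highest of their groups, and the groups did not overlap. The means were 10.89 ± 0.19 in mutant and 11.51 ± 0.15 in wild type skin (SD, n = 3 each), a difference of -0.63 (SE 0.12), or 1.54-fold lower. Coding regions of tubulin genes are close in sequence, so a probe set may also take up signal of a relative such as Tubb2b, and its gene is uncertain to that extent. The pseudogene Tubb2a-ps2 has a probe set of its own, which read between 3.12 and 3.38 on all arrays.

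Tubb5, the class I beta chain used by dividing and most other cells, was the only gene of the 5 with higher values in mutant skin. It read 12.05, 12.20 and 12.02 in mutant replicates 1, 2 and 3, against 11.89, 11.95 and 11.93 in wild type replicates 1, 2 and 3. The groups did not overlap, but the gap between the lowest mutant and the highest wild type array was smaller than the SD of the mutant arrays. The means were 12.09 ± 0.09 in mutant and 11.92 ± 0.03 in wild type skin (SD, n = 3 each), a difference of 0.17 (SE 0.07), or 1.12-fold higher.

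Tuba4a was the only gene with a probe set among the 4 listed alpha genes. Its product is the alpha chain whose gene does not encode the final tyrosine that most alpha chains carry. It read 11.79, 11.91 and 11.99 in mutant replicates 1, 2 and 3, against 12.07, 12.14 and 12.17 in wild type replicates 1, 2 and 3. All mutant arrays were below all wild type arrays, with mutant replicate 3 closest to them. The means were 11.90 ± 0.10 in mutant and 12.12 ± 0.05 in wild type skin (SD, n = 3 each), a difference of -0.23 (SE 0.08), or 1.17-fold lower.

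**Figure D1:**
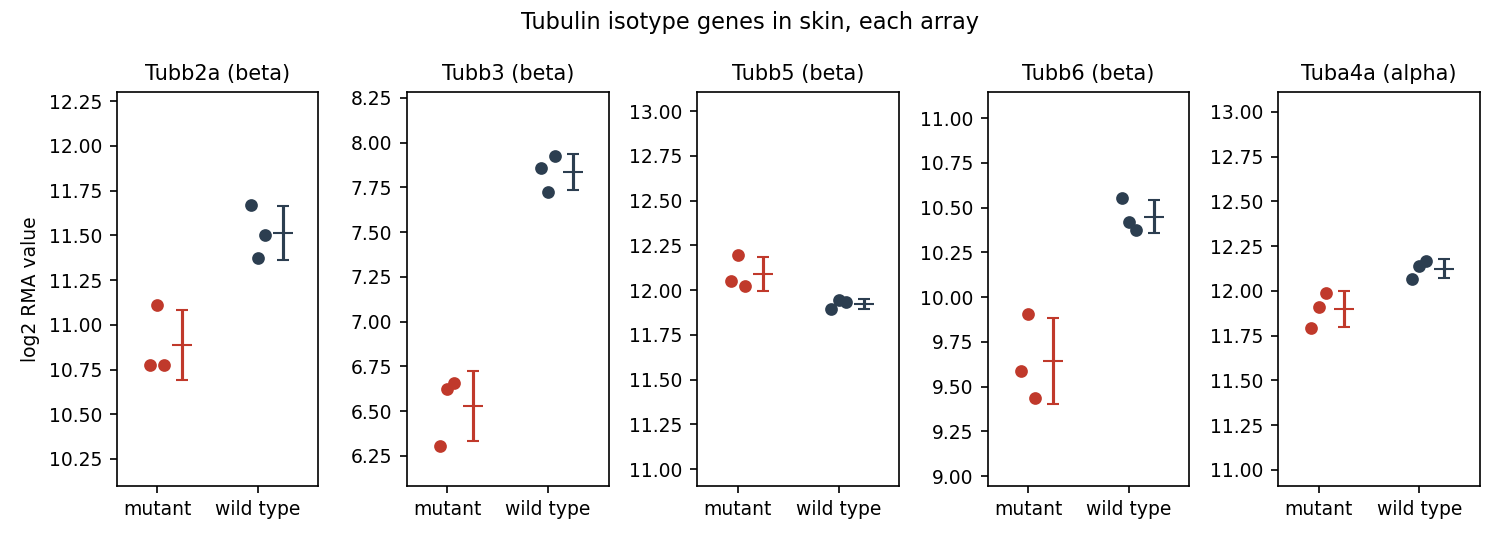
Log2 RMA values of the 5 measured tubulin isotype genes, with a panel for each gene and all vertical axes spanning the same log2 range. Points are single arrays (mutant left, wild type right), and the bar beside them is the mean with its SD (n = 3 each). Tubb3 shows the widest gap (6.53 against 7.84), and Tubb5 is the panel in which the mutant arrays lie higher (12.09 against 11.92).

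Groups did not overlap in any of the 5 genes, and 20.3% of all probe sets showed such a separation (7.82% with lower and 12.5% with higher mutant values). In the limma fit over all 16331 probe sets, which compares the groups with a spread shared in part between genes, 3 of the 5 (Tubb3, Tubb6 and Tubb2a, all lower) had an adjusted p under 0.05, where 2.08% of all probe sets did, 1.6% lower and 0.478% higher. The genes were chosen with this contrast known, so nothing is read from these counts. The number was 4, with Tuba4a added, without mutant replicate 3, and the share of all probe sets was then 14.2%. It was 1 (Tubb3) without mutant replicate 1, where that share was 0.967%, or without wild type replicate 1, 2 or 3, where it was 0.961%, 1.02% and 0.925%. Without mutant replicate 3 the differences were -1.37 for Tubb3, -0.70 for Tubb6, -0.57 for Tubb2a, -0.27 for Tuba4a and 0.20 for Tubb5, so each kept its direction. Among the differences of all probe sets, Tubb3 stood at percentile 0.692, Tubb6 at 1.14, Tubb2a at 1.62, Tuba4a at 6.82 and Tubb5 at 83.3, beside a median difference of 0.02 over all probe sets.

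The beta isotypes moved unequally relative to each other. With each gene set against its own wild type mean on the log2 scale, the mutant arrays lay between -1.53 and -1.18 for Tubb3, between -1.01 and -0.55 for Tubb6, between -0.74 and -0.40 for Tubb2a and between 0.10 and 0.27 for Tubb5. Tubb3 was therefore below Tubb6, and Tubb6 below Tubb2a, in all 3 mutant arrays. The gap between Tubb6 and Tubb2a was small: the within-array value of Tubb2a minus Tubb6 averaged 1.25 ± 0.08 in mutant and 1.06 ± 0.10 in wild type arrays (SD, n = 3 each), a shift of 0.18.

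The contrast of beta with alpha rests on Tuba4a alone for the alpha side. The alpha genes Tuba8 and Tuba3a and the beta gene Tubb4a were outside the list and did not enter this contrast. Their differences are given below. The mean of the 4 beta genes minus Tuba4a was -2.11, -1.95 and -2.27 in mutant replicates 1, 2 and 3, against -1.57, -1.77 and -1.73 in wild type replicates 1, 2 and 3. Only the shift between groups can be read from these values, since the probe sets differ in affinity, and it was -0.42, with no overlap of the groups. The beta mean was lower by 0.64 and Tuba4a by 0.23 in mutant skin, as log2 differences. Within the betas the shift against Tuba4a had both signs, at -1.08 for Tubb3, -0.58 for Tubb6, -0.40 for Tubb2a and 0.39 for Tubb5. The shift of the class mean is thus an average over genes that moved in opposite directions, and it does not describe Tubb5.

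**Figure D2:**
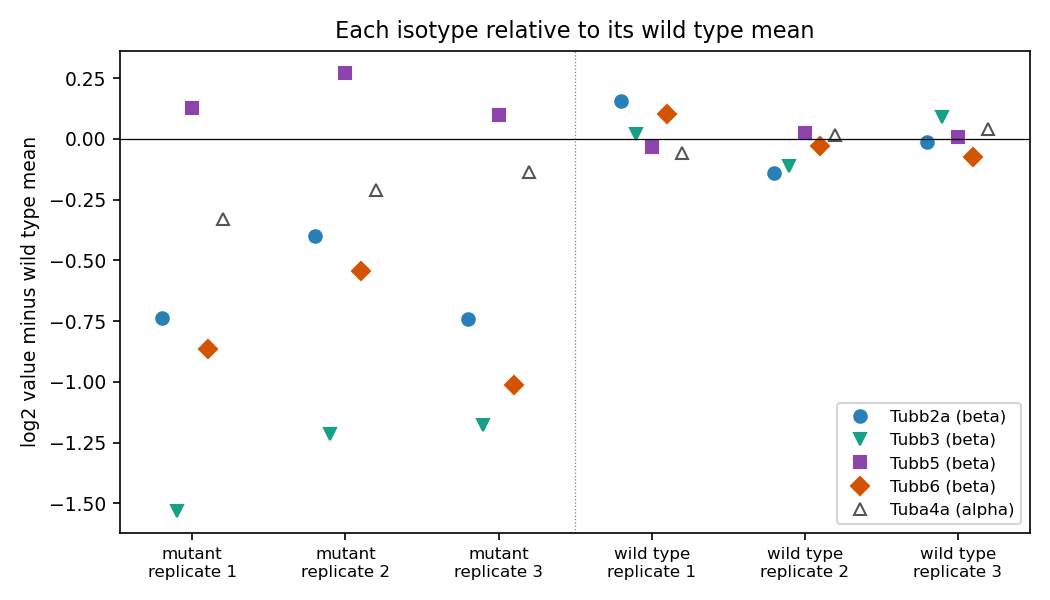
Log2 value of each measured isotype minus its own wild type mean, on each of the 6 arrays (mutant arrays left). Filled symbols are beta genes and open triangles are the alpha gene Tuba4a. On every mutant array the order from low to high is Tubb3, Tubb6, Tubb2a, Tuba4a and Tubb5, and the wild type arrays stay close to 0.

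Tubulin genes outside the list had a probe set in 7 of the 10 cases looked for. Of these, 0 had an adjusted p under 0.05 in the limma fit (2.08% of all probe sets), 0 an unadjusted p under 0.05 (14.4%), and in 0 were the groups apart (20.3%). Over 7 genes nothing particular to them is read from these counts. Tuba8, an alpha gene known from muscle, testis and brain, read 9.91, 10.04 and 10.32 in mutant replicates 1, 2 and 3, against 10.20, 10.39 and 10.27 in the wild type replicates (difference -0.19, limma adjusted p = 0.487). The beta gene Tubb4a, known from brain, differed by 0.01 (SE 0.09, limma adjusted p = 0.970). Tuba3a, an alpha gene known from testis, differed by -0.16 (SE 0.10), and its values of 3.25 to 3.70 over all arrays lay no higher than the top of the Y chromosome genes. The gamma tubulins, which seed new microtubules, differed by -0.09 (SE 0.07) for Tubg1 and by -0.05 (SE 0.07) for Tubg2, whose probe set also read below the top of the Y chromosome genes on every array, so that a difference of Tuba3a or Tubg2 might not be seen. The delta and epsilon tubulins of centrioles differed by -0.18 (SE 0.11) for Tubd1 and by 0.11 (SE 0.16) for Tube1. With standard errors of this size, small differences of these genes were not detectable with 3 arrays per group.

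**Figure D3:**
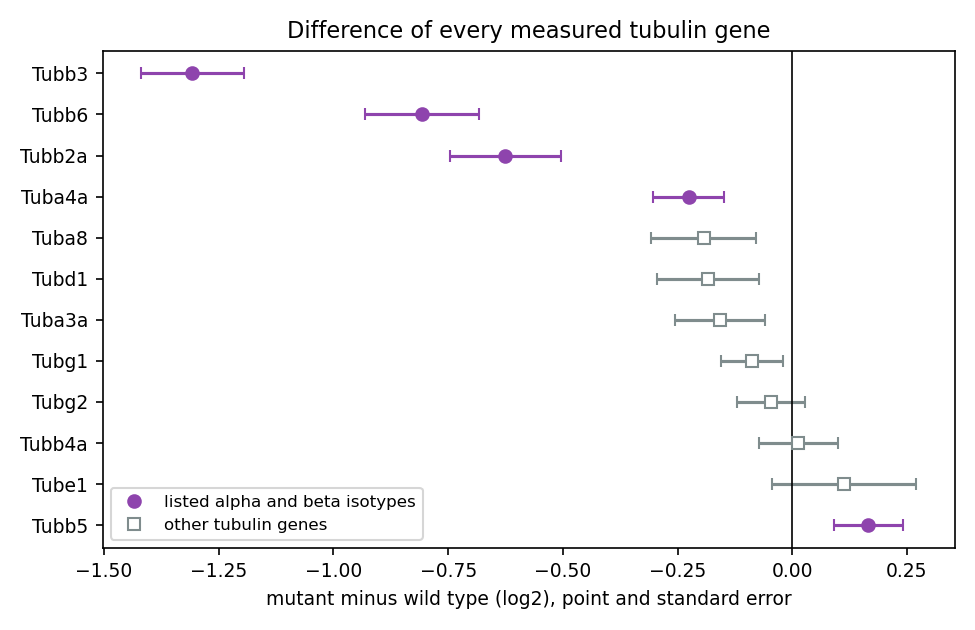
Mutant minus wild type log2 difference of every measured tubulin gene, with its limma standard error. Filled circles are the 5 listed isotypes and open squares the 7 other tubulin genes. Tubb3, Tubb6 and Tubb2a lie at -1.31, -0.81 and -0.63, while the other tubulin genes range between -0.19 and 0.11.

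Genes that fold, modify, bind, nucleate or travel on microtubules were set beside the isotypes from lists of 165 genes, including the other tubulins, of which 145 had a probe set. One gene passed the limma test, or 0.690% of the 145, beside 2.08% of all probe sets. This was Tppp, which encodes tubulin polymerization promoting protein, a protein that bundles microtubules. Tppp read 6.92, 6.54 and 6.76 in mutant replicates 1, 2 and 3, against 6.07, 6.04 and 6.05 in the wild type replicates, with all mutant arrays higher. It rose by 0.69 (SE 0.10, limma adjusted p = 0.0166), and removing wild type replicate 1, 2 or 3 ended this call (adjusted p = 0.0891, 0.0849 and 0.0922). Over the 145 genes the median difference was 0.05, beside 0.02 over all probe sets. In 37 of them, or 25.5%, the groups did not overlap, as they did not in 20.3% of all probe sets. Without mutant replicate 3 the limma test called 18 of them, 14 higher and 4 lower, where it called 14.2% of all probe sets.

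Folding of tubulin needs the chaperonin CCT, prefoldin and the tubulin cofactors. None of 22 such genes passed, where 2.08% of all probe sets did. Their median difference was 0.05, beside 0.02 over all probe sets. The smallest p was that of Tbcel, a cofactor E-like gene (-0.31, SE 0.08, limma adjusted p = 0.114). Ttc5 encodes the factor through which excess soluble tubulin leads to decay of tubulin mRNA, and it was singled out here after its values were seen. It read 8.61, 8.75 and 8.74 in mutant replicates 1, 2 and 3, against 8.84, 8.93 and 9.15 in the wild type replicates (difference -0.27, SE 0.10, limma adjusted p = 0.261). The test called 2 folding genes higher and 1 lower once mutant replicate 3 was removed, where 14.2% of all probe sets were called.

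Enzymes that modify tubulin add or remove tyrosine, glutamate, glycine or acetyl groups. None of 22 measured members passed (2.08% of all probe sets), with a median difference of 0.06. The smallest p was that of the deacetylase gene Sirt2 (0.20, SE 0.07, limma adjusted p = 0.238). With mutant replicate 3 removed, 3 were called higher and 1 lower, beside the same 14.2% of all probe sets. Among 39 genes of microtubule dynamics the test called 5 higher and 2 lower without mutant replicate 3, again beside 14.2%. With all arrays their median was 0.05, and Tppp was the only gene called (2.56% of the list, beside 2.08% of all probe sets). Its relative Tppp3 (0.84, SE 0.19, limma adjusted p = 0.0783) and Mapre3, which encodes the plus-end binding protein EB3 (-0.71, SE 0.17, limma adjusted p = 0.102), were singled out after their values were seen, and neither passed. Mapre3 read 6.59, 6.57 and 7.22 in mutant replicates 1, 2 and 3, against 7.54, 7.49 and 7.47 in the wild type replicates. Mutant replicate 3 was close to wild type for this gene, and without it the difference was -0.92 (limma adjusted p = 1.75e-04).

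None of 19 nucleation genes passed (2.08% of all probe sets), with a median of 0.06. The augmin subunit gene Haus4 had their smallest p (0.51, SE 0.13, limma adjusted p = 0.132), and without mutant replicate 3 the test called 4 of the list, all higher, beside 14.2% of all probe sets. None of 36 genes of cargo motors passed (2.08% of all probe sets), with a median of 0.05, nor did any without mutant replicate 3 (14.2%). The smallest p there was that of the kinesin light chain gene Klc3 (0.29, SE 0.08, limma adjusted p = 0.160). At an unadjusted p under 0.05, the limma fit held 6 of 22 folding, 2 of 22 modification, 9 of 39 dynamics, 2 of 19 nucleation and 2 of 36 motor genes, where it held 14.4% of all probe sets.

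**Figure D4:**
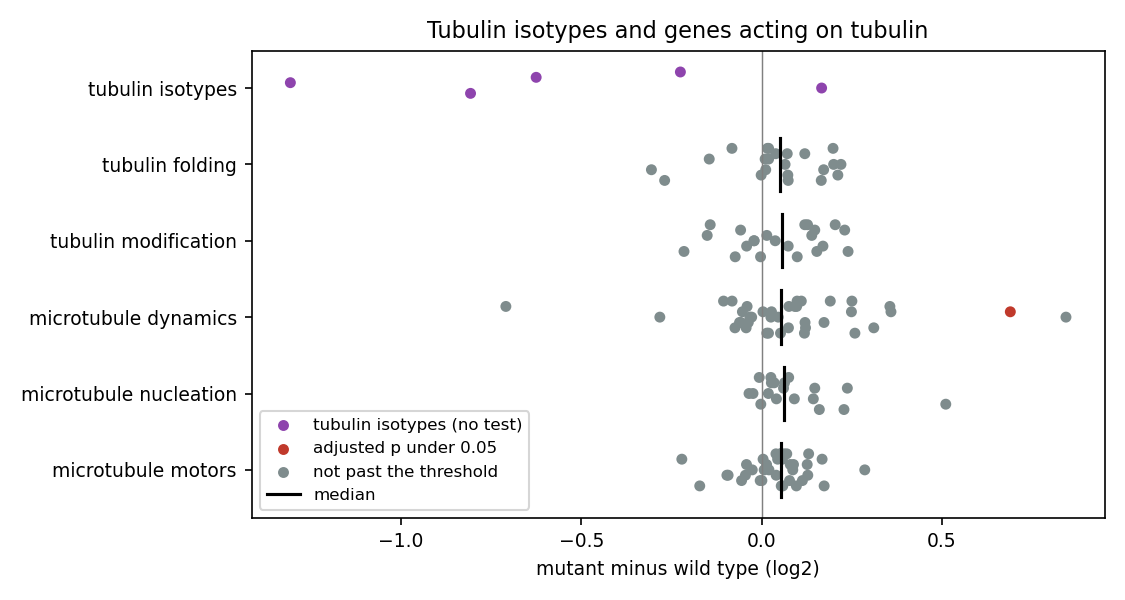
Mutant minus wild type log2 differences of the 5 isotypes and of the genes on 5 lists, 1 point per gene, with the list median as a black bar. Red points passed the limma test over all probe sets (Tppp at 0.69), and the isotypes are not marked for the test. The medians of all 5 lists lie between 0.05 and 0.06, beside 0.02 over all probe sets.

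Markers of other cell types gave the following values beside the isotypes. Beside Tubb3, 0 of 10 neuronal markers passed the limma test (2.08% of all probe sets), and 1 did without mutant replicate 3 (14.2%). At an unadjusted p under 0.05 there was 1 (Stmn2), beside 14.4% of all probe sets. The mean of the neuronal list was 4.81, 4.87 and 4.68 in mutant replicates 1, 2 and 3, against 4.70, 4.69 and 4.71 in the wild type replicates. On every array 7 of the 10, the neurofilament genes Nefl and Nefm among them, read below 4.89, the top of the Y chromosome genes, so this list rests on 3 genes above that level. Stmn2, a tubulin-binding protein of growing axons, had higher rather than lower values in mutant skin, at 7.72, 7.72 and 7.05, against 6.77, 6.69 and 6.86 in wild type skin (difference 0.73, SE 0.18, limma adjusted p = 0.110). The others above that level, Gap43 and Elavl3, differed by 0.01 (SE 0.20, limma adjusted p = 0.989) and 0.07 (SE 0.08, limma adjusted p = 0.757). The part of nerve cells in the Tubb3 difference was not tested.

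Melanocytes, like the sensory neurons of skin, descend from the neural crest. Of 10 melanocyte markers, 2 (Gpr143 and Mc1r, both lower) passed the limma test, where 2.08% of all probe sets did, 1.6% lower. All 10 markers had lower values in mutant skin, with a median of -0.44. Their list mean was 9.12, 8.97 and 9.55 in mutant replicates 1, 2 and 3, against 9.60, 9.72 and 9.72 in the wild type replicates. In mutant replicate 3 this mean was close to the lowest wild type value (9.55 against 9.60). Without that array 9 melanocyte markers were called lower, with a median of -0.62, where 14.2% of all probe sets were called. Without any other single array 0 of the 10 were called, so both calls were lost. The 8 hair shaft keratins, such as Krt35 (-6.91, limma adjusted p = 3.32e-07), all fell, with a list mean of 5.86, 6.01 and 5.44 in mutant replicates 1, 2 and 3, against 12.08, 11.72 and 11.87 in the wild type replicates. The part of either cell type in the Tubb3, Tubb6 and Tubb2a differences was not tested.

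Beside Tubb5, none of 11 markers of dividing cells, such as Top2a (0.07), passed the limma test (2.08% of all probe sets). None passed without mutant replicate 3 either (14.2%). At an unadjusted p under 0.05 there were 0 (14.4% of all probe sets), and in 0 of these markers were the groups apart (20.3%). Their mean was 9.34, 9.47 and 9.15 in mutant replicates 1, 2 and 3, against 9.29, 9.31 and 9.33 in the wild type replicates, and the groups overlapped. Mutant replicate 2 was the highest mutant array and mutant replicate 3 the lowest both in this mean and in Tubb5, and the part of dividing cells in the Tubb5 difference was not tested. Beside Tubb6 and Tuba4a, all 12 skeletal muscle markers had higher values in mutant skin, with a median of 0.80. Past the limma test was 1 of them (Myh2), where 2.08% of all probe sets passed, 0.478% with higher values. Without mutant replicate 3 the test called 6 of the 12, with a median of 1.04, where 14.2% of all probe sets were called, and without mutant replicate 1, mutant replicate 2 or wild type replicate 1 it called 0. The muscle mean was 12.01, 11.51 and 11.00 in mutant replicates 1, 2 and 3, against 10.68, 11.40 and 10.24 in the wild type replicates, and the part of muscle in the Tubb6 and Tuba4a differences was not tested. The list means of 6 Schwann cell, 4 Merkel cell, 6 fibroblast and 6 macrophage markers differed by 0.20, 0.07, 0.07 and 0.31. The macrophage genes all shared that direction (6 of 6 higher, Cd68 at 0.27), and the members of the other lists did not. Mutant values were higher for 5 of 6 Schwann cell genes (Mbp at 0.78) and 2 of 4 Merkel cell genes (Krt20 at 0.13). They were also higher for 2 of 6 fibroblast genes (Pdgfra at 0.37, with a list median of -0.01). The Merkel cell list lay near the floor: Atoh1 read below the top of the Y chromosome genes on every array, and with probe sets of low mean level left out only Chga remained (-0.08). Of the genes on these 4 lists none passed the limma test with all arrays (2.08% of all probe sets). At an unadjusted p under 0.05 the lists held 2, 0, 2 and 0 genes, beside 14.4% of all probe sets. Without mutant replicate 3, 2 Schwann cell, 1 fibroblast and 3 macrophage genes were called higher and 1 Schwann cell gene lower, beside the same 14.2% of all probe sets.

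**Figure D5:**
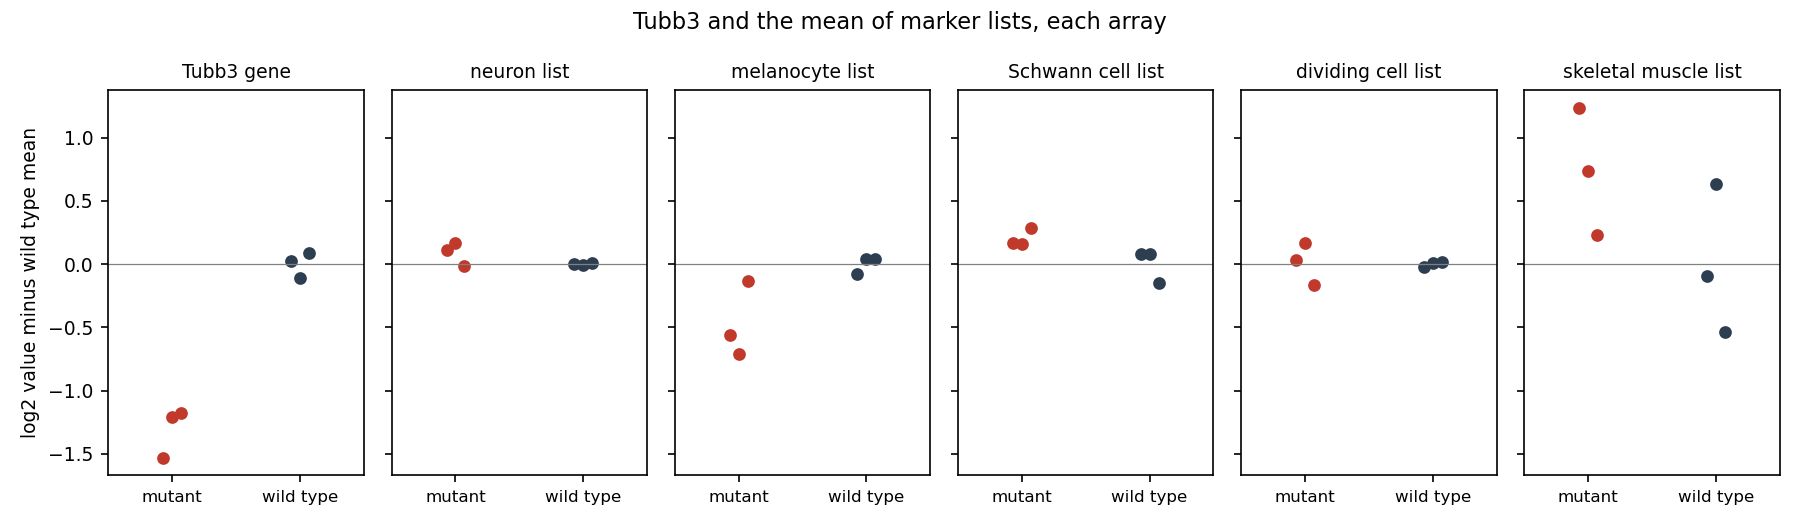
Log2 value of Tubb3 and mean log2 value of 5 marker lists on each array, each minus its own wild type mean (mutant left, wild type right). Tubb3 lies at -1.53 to -1.18 in the mutant arrays, while the neuronal list stays near 0, the melanocyte list is lower and the skeletal muscle list higher. Of the 10 neuronal genes, 7 read below the top of the Y chromosome genes on every array, which limits how far that list mean can fall.

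The genes next to each isotype in the RefSeq gene order were examined after the isotype values were known. Mc1r, the melanocortin receptor gene that sets coat pigment type, is the neighbour of Tubb3 on chromosome 8. Mc1r read 6.19, 6.12 and 6.31 in mutant replicates 1, 2 and 3, against 6.68, 6.56 and 6.77 in the wild type replicates, with all mutant arrays lower. It fell by 0.47 on the log2 scale (SE 0.09, limma adjusted p = 0.0435), and this call did not survive the removal of 1 wild type array, mutant replicate 1 or mutant replicate 2 (adjusted p between 0.0849 and 0.204). Def8, on the other side of Tubb3, differed by -0.15 (SE 0.09, limma adjusted p = 0.464). The 2 neighbours of Tubb5 (Flot1 and Mdc1), the 2 of Tubb6 (Cidea and Afg3l2) and the measured neighbour of Tubb2a (Bphl) and of Tuba4a (Stk16) did not pass, with differences between -0.36 and 0.12. Cidea, a gene of lipid droplets beside Tubb6, read 9.55, 9.80 and 10.69 in mutant replicates 1, 2 and 3, against 10.44, 10.29 and 10.38 in the wild type replicates, so that mutant replicate 3 alone was above wild type, unlike Tubb6.

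Profiles most like those of the isotypes were ranked by Pearson r over the 6 arrays, where the difference between the groups sets much of r. For Tubb3 the closest named genes were Yars, a tyrosyl-tRNA synthetase gene (r = 0.998), Abhd13 (r = 0.998) and Ppp2r1b, a scaffold subunit of protein phosphatase 2A (r = 0.997). These genes differed between mutant and wild type skin by -0.31, -0.65 and -0.83. For Tubb5, the listed isotype with higher mutant values, they were Mfsd10 (r = 0.998), Slc9a9, a sodium-proton exchanger gene (r = 0.997), and Fkbp15 (r = 0.993), with differences of 0.20, 0.32 and 0.13. They are given as a description over arrays that share 2 groups, with no test.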

How the data were processed

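Skin RNA was labelled by oligo(dT)-primed amplification, so signal comes from transcript 3′ ends, per the labels' protocols. The authors deposited log2 values made with RMA, per the submitters' processing notes of no stated version. Because RMA equalises the arrays, changes in total RNA are invisible. It also compresses differences near background, and detection calls were not used here. Of 16395 probe sets, 64 controls were left out. The array annotation named 1 gene for 15644 of the other 16331, several for 0 and none for 687, and no gene had more than 1 probe set.

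Mutant and wild type arrays, grouped by title, were fitted in R 4.3.3 with limma 3.58.1 (lmFit, eBayes, two-sided, no filter and no block), with Benjamini-Hochberg adjustment over 16331 probe sets and a threshold of 0.05. Precision is limited by 3 arrays per group, and the p-values cover only the spread among these samples.

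The isotypes, the lists and the tests were chosen with earlier results of these data known, so the limma calls of the isotypes are given as a description and support nothing. Named were all measured tubulins, each list's called genes or its smallest p, and the 3 closest profiles of the most increased and most decreased isotype. From each marker list 1 to 3 genes were named, and from the neuronal list also all that read above the Y chromosome genes. Alternatives were a filter on low mean level (lower quartile, 5.50), repeated quantile normalisation, median centring, array weights, a robust prior with an intensity trend, a replicate block and leaving out each array.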

Additional observations from a re-analysis of the deposited data

How the results depend on the processing

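The log2 differences of Tubb2a, Tubb3, Tubb5, Tubb6 and Tuba4a and the shift of the beta mean against Tuba4a kept their direction in all 12 alternatives, and each moved by less than the replicate SD pooled over both groups, although Tubb3, Tubb5 and Tubb6 moved by more than the smaller SD of the wild type arrays alone in some fits. With 1 array left out, they ranged from -1.37 to -1.20 for Tubb3, -0.94 to -0.70 for Tubb6, -0.74 to -0.55 for Tubb2a, -0.27 to -0.17 for Tuba4a, 0.11 to 0.20 for Tubb5 and -0.50 to -0.34 for the shift. The number of probe sets called by limma was 339 with all arrays, 1880 with array weights and 151 to 2316 with 1 array left out. The number of isotypes called (3, beside 2.08% of all probe sets) was 1 to 4 with 1 array left out (0.925% to 14.2% of all probe sets). It was 4 with array weights (Tuba4a added, beside 11.5%) and 2 with repeated quantile normalisation (2.09%), where Tubb2a no longer passed. The number of related microtubule genes called (1 of 145) was 14 with array weights, where 11.5% of all probe sets were called. With 1 array left out it was 0 to 18, beside 0.925% to 14.2% of all probe sets. The highest of each came without mutant replicate 3, and the fits without another array keep that array and have fewer samples. Without mutant replicate 3 the test rests on mutant replicates 1 and 2, which correlate at 0.997 across probe sets, and may understate the spread between mutants. With the replicate number as a block, 197 probe sets (1.21%) and 2 isotypes (Tubb3 and Tubb6) were called. Deviations from the group means of same-numbered arrays correlated at 0.04, -0.12 and -0.09 across probe sets. Those of mutant replicate 2 and wild type replicate 3 correlated at 0.24. With 3 arrays per group these values cannot exclude a shared batch, and the numbers are not known to mark pairs. The call of Mc1r was lost with the trend and robust prior (adjusted p = 0.0598) and with the block (0.0763).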
